A study of Mus musculus with 15 samples.

Results

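The TNF superfamily ligands examined here are the 10 genes Tnfsf4, Tnfsf8, Tnfsf10, Tnfsf11, Tnfsf14, Cd40lg, Fasl, Ltb, Lta and Tnf, chosen by name from the platform annotation among 19938 named genes. The choice was made with earlier results of these data known. All 10 had 1 probe set on the array, and 9 passed the filter on dim genes and were tested. Expression was measured on 15 single-colour arrays of CD4+CD25+ cells sorted from mouse spleen, a fraction rich in the regulatory T (Treg) cells that restrain immune responses. Cells came from double Ikzf2-/-Ikzf4-/- mice (dKO, 3 arrays), which lack both Helios, the product of Ikzf2, and Eos, the product of Ikzf4. Others came from Ikzf4-/- mice (3 arrays), from Ikzf2-/- mice (3 arrays) and from wild-type (WT) mice (6 arrays). Helios and Eos are zinc finger DNA-binding proteins of the Ikaros family. No group had a treatment, and strain, age, sex, the design of the knockout alleles and any pooling of animals are not given in the sources used here. The arrays were taken to fall into 2 runs, which no label states. Run 1 holds dKO, Ikzf4-/- and WT 1 to 3 (9 arrays), and run 2 holds Ikzf2-/- and WT 4 to 6 (6 arrays), and every comparison with WT used the same run. The labels do not tie arrays to separate animals. Within each group of run 1, the Y-linked gene Eif2s3y and the X-linked gene Xist differed between arrays. The arrays of such a group therefore did not all come from the same animals. Run 2 showed no such difference. Each p-value is relative to a spread that may include technical variation only between some of the arrays.

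TNF superfamily ligands are made mostly as membrane proteins that assemble into trimers, and some are also released from the cell surface. They bind receptors of the TNF receptor superfamily on neighbouring cells. Many of the receptors recruit TRAF adaptors and activate NF-kB, which favours survival and activation. Some carry a death domain and can start apoptosis, and a receptor may do both. T cells use them in both ways: CD40 ligand (Cd40lg) gives help to B cells, while Fas ligand (Fasl), TRAIL (Tnfsf10) and TNF can kill target cells. CD30 ligand (Tnfsf8), RANK ligand (Tnfsf11), OX40 ligand (Tnfsf4) and LIGHT (Tnfsf14) act on other T cells, antigen-presenting cells or stroma. The lymphotoxins (Lta, Ltb) shape lymphoid tissue.

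Several of these genes are neighbours in the RefSeq gene order. Ltb, Tnf and Lta follow each other without a gene between them, Tnfsf15 lies next to Tnfsf8, Tnfsf18 lies between Tnfsf4 and Fasl, and Cd70 lies between Tnfsf9 and Tnfsf14. RefSeq promoter windows of 250 bases before to 50 bases after the start site were at hand for 8 of the 10 ligands (GRCm38.p6). The windows of Tnfsf8 and Tnfsf10 are shown because these genes had the largest differences in dKO cells, and that of Lta because it alone among the 8 held TGGGAA, a core of Ikaros family binding sites. Capitals mark that match, which here reads TTCCCA because it lies on the opposite strand. The Tnfsf8 window is chr4:63861235-63861534 on the minus strand, the Tnfsf10 window is chr3:27316827-27317126 on the plus strand, and the Lta window is chr17:35205302-35205601 on the minus strand.
Tnfsf8: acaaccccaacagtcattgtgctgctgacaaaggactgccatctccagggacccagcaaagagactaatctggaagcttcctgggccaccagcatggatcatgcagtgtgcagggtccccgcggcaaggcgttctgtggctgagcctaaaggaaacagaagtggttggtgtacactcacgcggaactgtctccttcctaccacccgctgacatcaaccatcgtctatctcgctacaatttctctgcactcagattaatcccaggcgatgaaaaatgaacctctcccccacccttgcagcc
Tnfsf10: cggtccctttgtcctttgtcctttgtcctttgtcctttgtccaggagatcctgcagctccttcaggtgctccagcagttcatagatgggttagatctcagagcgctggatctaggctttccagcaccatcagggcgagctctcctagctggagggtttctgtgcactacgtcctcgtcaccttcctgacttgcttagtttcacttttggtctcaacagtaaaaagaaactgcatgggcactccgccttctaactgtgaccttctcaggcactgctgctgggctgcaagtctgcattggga
Lta: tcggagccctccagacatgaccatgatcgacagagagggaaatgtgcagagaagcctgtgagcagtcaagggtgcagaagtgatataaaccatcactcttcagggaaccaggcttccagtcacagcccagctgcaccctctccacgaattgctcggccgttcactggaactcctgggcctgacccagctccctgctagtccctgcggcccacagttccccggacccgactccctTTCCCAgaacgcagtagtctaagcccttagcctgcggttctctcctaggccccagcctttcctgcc

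On both strands, TGGGAA occurred in 25.42% of 32544 promoter windows of the same length and in 1 of the 8 ligand windows. The Lta match runs from position -16 to -11 relative to the start site and overlaps a match to the STAT5 motif TTCNNNGAA. That motif was found in 8.327% of all windows and, among the ligands, in those of Ltb and Lta. The AP-1 motif TGANTCA was found in 7.789% of windows and in that of Tnfsf14. The NFAT core GGAAAA was found in 23.3% of windows and in those of Fasl and Tnf. None of these 4 motifs was found in the windows of Tnfsf8, Tnfsf10 or Tnfsf11, which says only that these letters are not there.

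Markers of other spleen cells differed between arrays of the same group. The mean log2 signal of 12 tested B cell genes (of 13 listed) was 5.12 to 5.51 on dKO arrays, 5.18 to 5.35 on Ikzf4-/- arrays, and 7.33, 5.34 and 5.51 on WT 1, WT 2 and WT 3. It was 6.73, 5.68 and 8.30 on Ikzf2-/- 1, 2 and 3, against 5.94 to 6.22 on WT 4 to 6. The mean of 6 tested neutrophil genes (of 8 listed, Elane and Ly6g being below the filter) was 5.35 to 6.08 in dKO cells, 4.48 to 5.26 in Ikzf4-/- cells and 4.53 to 7.14 in WT 1 to 3. It was 6.32 to 9.39 in Ikzf2-/- cells, against 5.12 to 5.81 in WT 4 to 6. WT 1 and Ikzf2-/- 3 thus carried the highest signal of both lists. The Y-linked gene Eif2s3y was at 7.94 to 8.81 on dKO 2, dKO 3, Ikzf4-/- 3 and WT 3 and at 2.87 to 3.09 on the other 11 arrays, and dKO 2 also had Xist signal (7.25). The targeted genes gave little check of the labels, as none passed. Ikzf2 differed by -0.37 in dKO cells, which overlapped WT, and by -0.86 in Ikzf2-/- cells against WT (limma, adjusted p = 1 and 0.0880). Ikzf4 was higher, not lower, by 0.15 in dKO and 0.21 in Ikzf4-/- cells (adjusted p = 1 for both). Every Ikzf4-/- array (8.13 to 8.22) lay above WT 1 to 3 (7.83 to 8.07) in Ikzf4 signal. Whether these probe sets lie inside the deleted exons is not known here. Foxp3 and Il2ra differed by at most 0.23 in either direction, and CD3 and CD4 genes had a mean log2 signal of 10.5 to 11.0 on every array. The lowest of these means (10.46) was that of Ikzf2-/- 2. Its mean of 8 Treg genes, Ikzf2 among them, was 9.24, against 9.89 and 9.56 on Ikzf2-/- 1 and 3. WT 4 to 6 had 9.68 to 9.77. The CD8 T cell gene Cd8b1 was at 7.31 on Ikzf2-/- 2, against 6.12 and 6.09 on Ikzf2-/- 1 and 3 and 6.06 to 6.12 on WT 4 to 6.

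In cells lacking both factors, 1 ligand passed the test, Tnfsf8, and it was higher. Tnfsf8 encodes CD30 ligand, which engages CD30 (Tnfrsf8) on activated lymphocytes. Its log2 signal was 8.94, 8.82 and 8.68 on the 3 dKO arrays, against 7.77, 7.89 and 7.85 on WT 1 to 3. Every dKO array lay above every WT array. The difference was 0.98 ± 0.15 (log2, SE; 95% interval 0.65 to 1.31), a 1.97-fold higher signal (n = 3 arrays each), with an adjusted p of 0.0406 by limma with Benjamini-Hochberg adjustment over 10964 genes. It had the third smallest p-value of all genes tested. In dKO minus WT, 0.0638% of genes tested passed in either direction, 3 higher and 4 lower, and 1 of 9 ligands did. These are whole fractions of cells, in which more cells expressing a gene and more RNA per cell cannot be told apart. The Tnfsf8 difference lay between 0.92 and 1.05 under 27 alternative settings, while the call held in 8 of them, was lost in 19, and the adjusted p lay between 0.00366 and 0.229. The call was lost without any one array of dKO, Ikzf4-/- or WT 1 to 3. The adjusted p was 0.149 without WT 1, the run 1 array with the most B cell signal. The call was also lost without WT 5, WT 6 or Ikzf2-/- 1, and without both arrays of high B cell signal (0.148). Leaving out an Ikzf4-/- or run 2 array left the difference at 0.98 and changed the shared spread and the adjustment over all genes. The unadjusted limma p was 3.03e-05 without WT 5, 7.22e-06 without WT 6 and 6.98e-06 without Ikzf2-/- 1, against 1.69e-05 in the reported fit. The replicate number as a block in run 1 alone (0.0556), a B cell covariate (0.0564) and no filter (0.0679) ended the call as well. So did equal array medians (0.0643), only the groups compared (0.0632), and an Eif2s3y covariate chosen after the data were seen (0.0970).

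Of the cytokine genes of activated conventional T cells, Ifng was also highest in the dKO cells of run 1. The mean log2 signal of the 3 tested genes of that list (Il2, Il13 and Ifng, of 8 listed) was 5.22 to 5.40 in dKO cells, 4.84 to 5.18 in Ikzf4-/- cells and 5.02 to 5.21 in WT 1 to 3, and 5.16 to 5.20 in Ikzf2-/- cells, against 4.79 to 4.89 in WT 4 to 6. The list means of the dKO arrays lay above those of the other arrays of run 1, and those of the Ikzf2-/- arrays above WT 4 to 6. In dKO minus WT that rests on Ifng (0.64 ± 0.21, adjusted p = 0.757), since Il2 was at -0.05 and Il13 at 0.03. In Ikzf2-/- minus WT, Il2 was at 0.44, Ifng at 0.44 and Il13 at 0.11, and Il2 had passed the filter through WT 1 to 3 alone. None of the 3 genes passed in any comparison, and the part of such cells in the ligand values was not tested.

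Ikzf4-/- cells stood between dKO and WT cells in Tnfsf8 signal. The 3 Ikzf4-/- arrays had 8.23, 8.38 and 7.96, all above WT 1 to 3 and all below the dKO arrays. Neither step passed the test alone: Ikzf4-/- minus WT was 0.36 ± 0.15 (adjusted p = 1, unadjusted 0.0346), and dKO minus Ikzf4-/- was 0.62 ± 0.15 (adjusted p = 0.529). In Ikzf2-/- cells Tnfsf8 was 8.30, 7.81 and 7.90, against 8.04, 7.99 and 7.56 in WT 4 to 6. Those groups overlap, and the difference was 0.14 ± 0.15 (adjusted p = 0.695). Leaving out 1 array moved it between -0.0082 (without WT 6) and 0.24 (without Ikzf2-/- 2). Tnfrsf8, the gene of its receptor CD30, differed by -0.12 in dKO, 0.10 in Ikzf4-/- and -0.01 in Ikzf2-/- cells against WT, and by -0.21 in dKO against Ikzf4-/- cells, none of which passed.

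**Figure D1:**
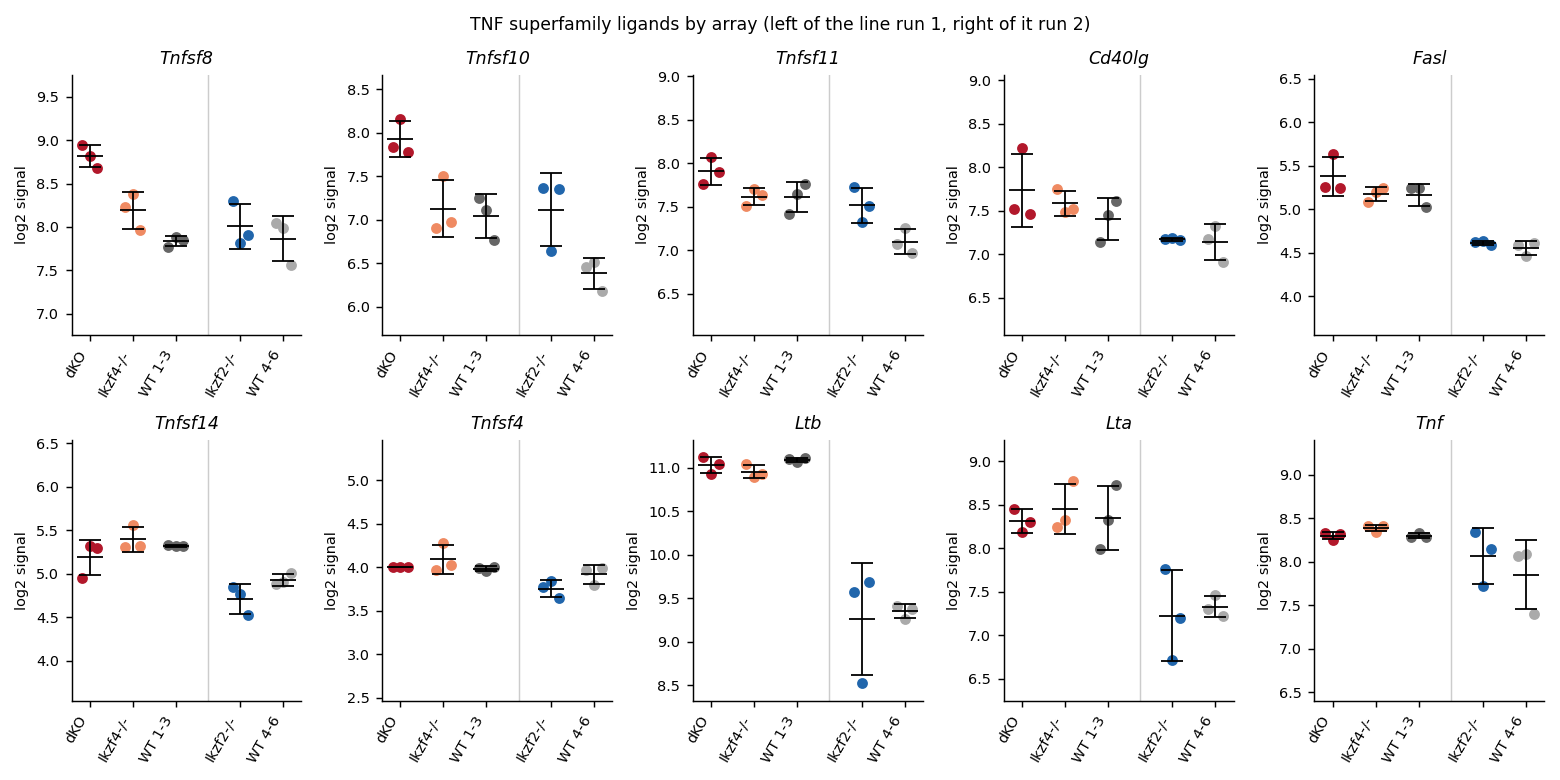
Log2 signal of the 10 ligands on each of the 15 arrays, with a point per array and bars for the group mean ± SD (n = 3 each). Run 1 lies left of the grey line and run 2 right of it, each panel spans 3 log2 units around its own values, and the 3 dKO points for Tnfsf8 (8.68 to 8.94) lie above the other 6 arrays of run 1.

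Tnfsf10 encodes TRAIL, which binds a death receptor and, in mouse, decoy receptors. Its log2 signal was 7.84, 8.16 and 7.78 in dKO cells, 6.91, 7.50 and 6.98 in Ikzf4-/- cells, and 7.25, 7.12 and 6.77 in WT 1 to 3. All dKO arrays lay above all others of run 1, while the Ikzf4-/- and WT arrays overlapped. The difference was 0.88 ± 0.21 for dKO minus WT (adjusted p = 0.359), 0.80 ± 0.21 for dKO minus Ikzf4-/- (adjusted p = 0.674) and 0.08 ± 0.21 for Ikzf4-/- minus WT (adjusted p = 1), so none passed. In Ikzf2-/- cells the signal was 7.36, 6.64 and 7.36, against 6.46, 6.51 and 6.18 in WT 4 to 6, again without overlap. That difference was 0.73 ± 0.21 (1.66-fold, adjusted p = 0.126), and did not pass either. Few alternative settings gave Tnfsf10 a call. It passed in 2 of 26 in Ikzf2-/- minus WT, 1 of 26 in dKO minus Ikzf4-/- and 0 of 27 in dKO minus WT. Without Ikzf2-/- 2, the array with the lowest Tnfsf10 of its group, the Ikzf2-/- difference was 0.97 (adjusted p = 0.0418). With array weights it was 0.89 (adjusted p = 0.0406), and dKO minus Ikzf4-/- was 0.83 (adjusted p = 0.0482).

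Neutrophil genes had the sign of Tnfsf10 in both comparisons in which Ikzf2 was the gene removed, but not throughout in dKO minus WT. The 6 tested neutrophil genes had a median difference of 1.93 in Ikzf2-/- minus WT and 0.40 in dKO minus Ikzf4-/-, all positive, and of 0.02 in dKO minus WT, where 4 were positive and 2 negative. None passed the test, and Ltf and Mpo had passed the filter through the Ikzf2-/- arrays alone, which fixed their sign in Ikzf2-/- minus WT. The list means did not overlap between the groups in Ikzf2-/- minus WT and in dKO minus Ikzf4-/-. The macrophage and dendritic cell genes Lyz2, Cd68 and Csf1r, the 3 tested of 8, were at 1.52, 0.45 and 0.20 in Ikzf2-/- minus WT and at -1.18, -0.41 and -0.37 in dKO minus WT, and none passed. Csf1r had passed the filter through WT 1 to 3 alone. The mean log2 signal of these 3 genes was 6.21 to 7.42 in Ikzf2-/- arrays and 5.76 to 6.32 in WT 4 to 6, and 5.58 to 6.30 in dKO arrays and 5.97 to 7.16 in WT 1 to 3, so that the groups overlap in both comparisons. The part of such cells in the Tnfsf10 values was not tested. After adjustment for the B cell list mean, Tnfsf10 differed by 0.54 in Ikzf2-/- minus WT, 0.80 in dKO minus Ikzf4-/- and 1.07 in dKO minus WT (adjusted p = 0.193, 0.222 and 0.0577). Among TRAIL receptors, Tnfrsf10b, the mouse death receptor, differed by 0.00 in dKO, 0.23 in Ikzf4-/- and -0.09 in Ikzf2-/- cells against WT, and by -0.22 in dKO against Ikzf4-/- cells, none of which passed. The decoy receptor Tnfrsf23 passed the filter through the dKO arrays alone, so its values there are a description. It differed by 0.31 ± 0.13 in dKO minus WT (adjusted p = 1) and by 0.48 ± 0.13 in dKO minus Ikzf4-/- (adjusted p = 0.786). The decoy receptor Tnfrsf22 differed by 0.28 ± 0.11 in Ikzf2-/- minus WT (adjusted p = 0.230).

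Tnfsf11 encodes RANK ligand, known for driving osteoclast formation and lymph node development. It read 7.76, 8.07 and 7.90 in dKO cells, 7.51, 7.71 and 7.63 in Ikzf4-/- cells, and 7.42, 7.65 and 7.77 in WT 1 to 3. The dKO arrays lay above the Ikzf4-/- arrays and overlapped the WT arrays by a narrow margin. The difference was 0.29 ± 0.13 for dKO minus WT and also 0.29 ± 0.13 for dKO minus Ikzf4-/- (adjusted p = 1 for both), while Ikzf4-/- minus WT was 0.00 ± 0.13. In Ikzf2-/- cells Tnfsf11 was 7.73, 7.32 and 7.51, against 7.07, 7.25 and 6.97 in WT 4 to 6. The groups did not overlap, with a difference of 0.42 ± 0.13 (adjusted p = 0.134) that did not pass. The receptor RANK (Tnfrsf11a) and the decoy osteoprotegerin (Tnfrsf11b) were below the filter in every group.

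Cd40lg, the CD40 ligand of helper T cells, was high on 1 dKO array. It read 7.52, 8.22 and 7.47 in dKO cells, 7.76, 7.49 and 7.53 in Ikzf4-/- cells, and 7.15, 7.45 and 7.62 in WT 1 to 3. The groups overlap, and dKO minus WT was 0.33 ± 0.18 (adjusted p = 1) and 0.09 without dKO 2. In run 2 it was 7.17, 7.19 and 7.16 in Ikzf2-/- cells, against 7.18, 7.32 and 6.92 in WT 4 to 6 (difference 0.03 ± 0.18, adjusted p = 0.948). Fasl was also highest on dKO 2, at 5.63, with 5.26 and 5.24 on the other dKO arrays, against 5.02 to 5.24 on WT 1 to 3. Its difference was 0.21 ± 0.10 for dKO minus WT and 0.20 ± 0.10 for dKO minus Ikzf4-/- (adjusted p = 1 for both), and 0.06 ± 0.10 for Ikzf2-/- minus WT (adjusted p = 0.828). Fas, the death receptor for Fas ligand, differed by -0.20 ± 0.08 in dKO minus WT, -0.22 ± 0.08 in dKO minus Ikzf4-/- and -0.22 ± 0.08 in Ikzf2-/- minus WT (adjusted p = 1, 1 and 0.215). The CD40 receptor gene Cd40 differed by -0.15 in dKO and 0.10 in Ikzf2-/- cells against WT, neither of which passed. Array dKO 2, which had both Eif2s3y and Xist signal, also held the highest Tnfsf10 (8.16) and Tnfsf11 (8.07) of all arrays, but not the highest Tnfsf8. Without dKO 2, Tnfsf10 in dKO minus WT was 0.77, against 0.88 with all arrays.

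Fasl and Tnfsf14 were dim, and they passed the filter through run 1 alone, since their means in both groups of run 2 lay below it. In run 1, 4 of 9 arrays shared exactly 1 log2 value for Fasl (5.24) and 4 shared 1 value for Tnfsf14 (5.32). Tnfsf4, the OX40 ligand, lay between 3.65 and 4.28 on all arrays and was not tested, and all 3 dKO arrays and WT 3 had the same value of 4.01. Exactly equal values were common in run 1, where a pair of arrays shared them in 2286 probe sets on average, against 34.4 in run 2 and 0.0741 across runs. Differences between such dim, tied values are therefore coarse. Tnfsf14, or LIGHT, a costimulatory ligand of HVEM (Tnfrsf14), read 4.96, 5.32 and 5.30 in dKO cells, 5.31, 5.56 and 5.32 in Ikzf4-/- cells, and 5.32 to 5.33 in WT 1 to 3. It differed by -0.13 ± 0.11 in dKO minus WT and -0.20 ± 0.11 in dKO minus Ikzf4-/- (adjusted p = 1 for both). In run 2 it was 4.85, 4.77 and 4.53 in Ikzf2-/- cells, against 4.88, 4.90 and 5.01 in WT 4 to 6, without overlap (difference -0.22 ± 0.11, adjusted p = 0.359). The OX40 receptor Tnfrsf4 and HVEM differed by at most 0.07 in either direction in all 4 comparisons.

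The neighbouring genes Ltb, Lta and Tnf showed no difference that passed. Ltb, the membrane anchor of lymphotoxin, was 11.12, 10.93 and 11.04 in dKO cells, 11.04, 10.89 and 10.93 in Ikzf4-/- cells, and 11.10, 11.06 and 11.11 in WT 1 to 3. Its differences were -0.06 ± 0.21 for dKO minus WT, 0.08 ± 0.21 for dKO minus Ikzf4-/-, -0.13 ± 0.21 for Ikzf4-/- minus WT and -0.09 ± 0.21 for Ikzf2-/- minus WT. In run 2, Ikzf2-/- 2 read 8.52 while Ikzf2-/- 1 and 3 read 9.57 and 9.69, against 9.26 to 9.41 in WT 4 to 6. Lta, the secreted lymphotoxin chain, lay at 8.19 to 8.45 in dKO cells, 8.25 to 8.78 in Ikzf4-/- cells and 7.99 to 8.72 in WT 1 to 3, so that the WT arrays spanned the whole dKO range. It differed by -0.03 ± 0.23 in dKO and 0.10 ± 0.23 in Ikzf4-/- cells against WT. Tnf varied little in run 1, at 8.25 to 8.33 in dKO cells, 8.34 to 8.41 in Ikzf4-/- cells and 8.28 to 8.33 in WT 1 to 3. It differed by 0.00 ± 0.17 in dKO minus WT (95% interval -0.37 to 0.37), and by 0.22 ± 0.17 in Ikzf2-/- minus WT (8.34, 7.71 and 8.15, against 8.06, 8.09 and 7.39). The TNF receptors Tnfrsf1a and Tnfrsf1b differed by at most 0.20 in either direction in the 4 comparisons, and the lymphotoxin receptor gene Ltbr was below the filter.

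**Figure D2:**
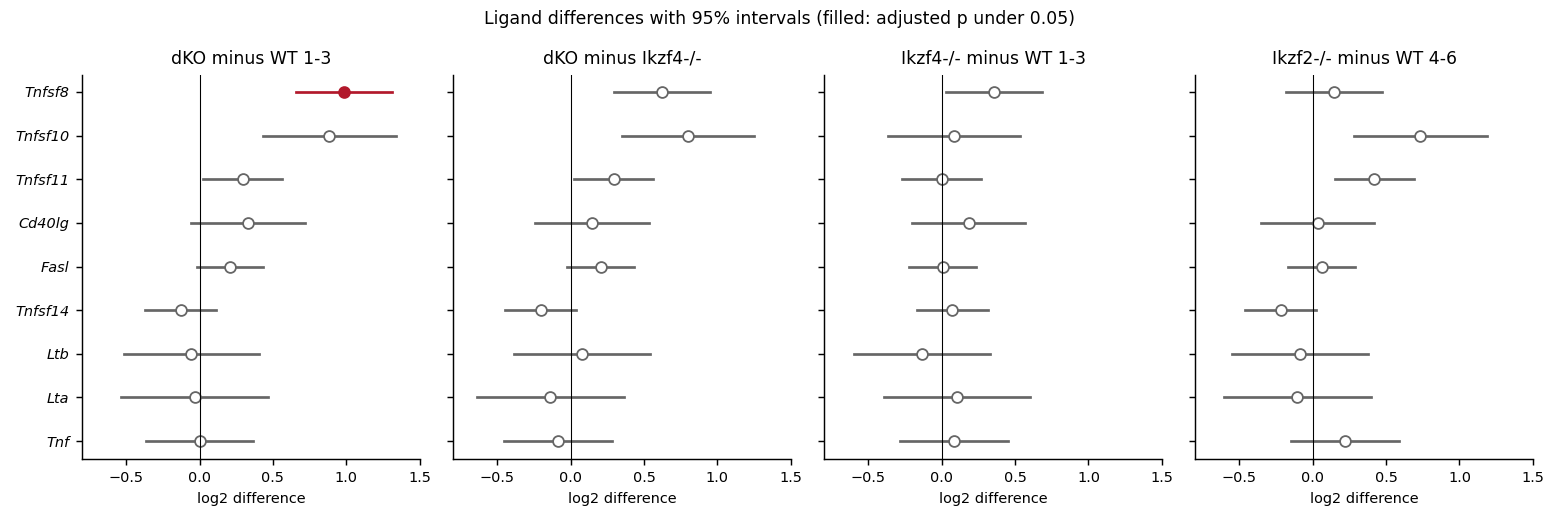
Log2 difference of the 9 tested ligands in each comparison, with 95% intervals from the limma fit and n = 3 arrays in each group. A filled point marks an adjusted p under 0.05, which applies to Tnfsf8 in dKO minus WT 1 to 3 (0.98) and to no other point.

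Read as a group, the ligands gave few calls. They were chosen with earlier results of these data known, so their counts are a description and not a test of the group. Of the 9 tested, 1 passed in dKO minus WT, and none passed in Ikzf4-/- minus WT, Ikzf2-/- minus WT or dKO minus Ikzf4-/-, where 0%, 0.0638% and 0.0274% of all genes tested passed. Unadjusted p-values under 0.05 were found for 3, 1, 2 and 3 ligands in these 4 comparisons, against 4.38%, 2.18%, 16.4% and 3.48% of all genes. The median ligand difference was 0.21 in dKO minus WT, 0.08 in Ikzf4-/- minus WT, 0.06 in Ikzf2-/- minus WT and 0.15 in dKO minus Ikzf4-/-. Over all genes tested it was 0.00, 0.01, 0.02 and 0.00.

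Counts of ligands without overlap between the groups are out of the 9 tested, with the share of all genes tested beside them. They too are a description of ligands chosen with earlier results known. In dKO minus WT, every dKO array exceeded every WT array for 2 ligands (Tnfsf8 and Tnfsf10) and lay below for none, where 5.34% and 4.22% of all genes did so. In Ikzf4-/- minus WT, Tnfsf8 and Tnf were above and Ltb below, against 3.62% and 2.92% of all genes. In Ikzf2-/- minus WT, Tnfsf10 and Tnfsf11 were above and Tnfsf14 below, against 10.7% and 5.5% of all genes. In dKO minus Ikzf4-/-, Tnfsf8, Tnfsf10 and Tnfsf11 were above and Tnf below, against 4.09% and 4.19% of all genes. The comparisons of run 1 share arrays, so their counts are not independent.

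Ikzf2 loss can be read both in cells without Ikzf4 (dKO minus Ikzf4-/-, run 1) and in cells with it (Ikzf2-/- minus WT 4 to 6, run 2), comparisons that share no array. The difference between them was tested for each ligand and none passed. Over all genes tested 0% passed by limma, and 690 (6.29%) had an unadjusted p under 0.05. For Tnfsf8 Ikzf2 loss gave 0.62 without Ikzf4 and 0.14 with it, a difference of 0.48 ± 0.22 (95% interval 0.02 to 0.94, adjusted p = 0.781, unadjusted 0.0421). Leaving out 1 array moved that difference between 0.37 and 0.63. For Tnfsf10 the values were 0.80 and 0.73, a difference of 0.07 ± 0.30 with an interval of -0.57 to 0.70, which still includes a sizeable difference either way. For Tnfsf11 they were 0.29 and 0.42 (difference -0.13 ± 0.18), and for Tnfsf14 -0.20 and -0.22 (difference 0.01 ± 0.16). For Tnf they were -0.09 and 0.22 (difference -0.31 ± 0.24, adjusted p = 0.885). Run and Ikzf4 genotype cannot be told apart in this comparison.

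**Figure D3:**
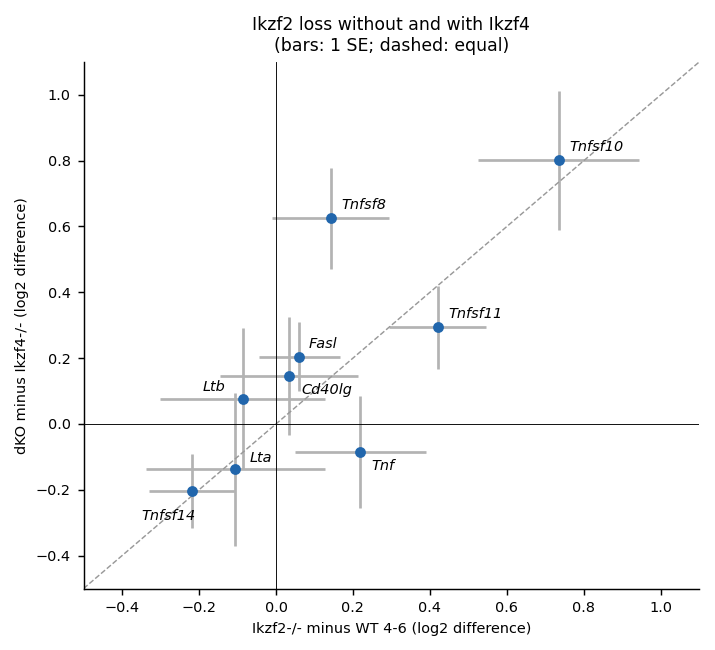
Log2 difference made by Ikzf2 loss for the 9 tested ligands, in cells without Ikzf4 (dKO minus Ikzf4-/-, vertical axis) against cells with Ikzf4 (Ikzf2-/- minus WT 4 to 6, horizontal axis), with bars of 1 SE and a dashed line where both are equal. Tnfsf10 (0.73 and 0.80) lies near the line and Tnfsf8 (0.14 and 0.62) above it.

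Across the 15 arrays, each ligand was expressed as its log2 signal less the WT mean of its run, and pairs were compared by Pearson correlation, as a description of arrays that share group, run and RNA source. Tnfsf10 and Tnfsf11 had the highest value (0.79), followed by Tnfsf8 and Tnfsf10 (0.67), and Tnfsf10 and Fasl (0.62). The adjacent genes Ltb, Lta and Tnf reached 0.44 to 0.50 among themselves. Tnfsf10 and Tnfsf14 had the lowest (-0.44). Among all genes tested, those most like Tnfsf8 by the same measure were Dstyk (0.85), Ctla4 (0.84), Snf8 (0.84), Gpm6b (0.83) and Scoc (0.82), and those most unlike it were Gm15401 (-0.87), Neurl3 (-0.86) and Acads (-0.85). Ctla4, an inhibitory receptor that Treg cells need, differed by 0.20 ± 0.09 in dKO minus WT (adjusted p = 1). Gpm6b, a neuronal membrane glycoprotein gene, differed by 0.96 ± 0.15 (adjusted p = 0.0406) and was the only gene of these 8 that passed.

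The wider pathway gave no call. Of the 13 receptors of these ligands 10 were tested, of 14 further TNF receptor family members 9, of 24 TRAF and NF-kB genes 21, and of 14 death-receptor signalling genes 9. None rose or fell in any of the 5 comparisons. The receptors had a median difference of -0.04 in dKO minus WT and -0.03 in Ikzf2-/- minus WT, the TRAF and NF-kB genes 0.00 and -0.06, and the death-signalling genes -0.07 and 0.06. The TRAF and NF-kB genes spanned only -0.10 to 0.13 in dKO minus WT, in which Nfkbib, an NF-kB inhibitor, was at 0.13, and both Traf4 and Ikbkg, the regulatory subunit of the kinase that releases NF-kB, were at -0.07. In Ikzf4-/- minus WT the adaptor Traf1 was at 0.22 ± 0.12. Further TNF receptor family members had a median of -0.16 in dKO minus WT, against 0.00 over all genes tested. The share of negative differences over all genes was not counted. Of these 9 members 8 were negative, and 1 of the 8, Tnfrsf13c, was at -0.02 without WT 1. Among these members Tnfrsf25 (death receptor 3), a costimulator of Treg cells, was at -0.30 ± 0.11 in dKO minus WT and -0.34 ± 0.11 in dKO minus Ikzf4-/- (adjusted p = 0.895 and 1).

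Tnfrsf13c, the BAFF receptor of B cells, was at -0.52 ± 0.40 in dKO minus WT and 0.98 ± 0.40 in Ikzf2-/- minus WT (adjusted p = 1 and 0.244), in the same direction as the B cell list, which had medians of -0.80 and 0.88. The dKO minus WT values rest on WT 1: without it, a setting chosen after the data were seen, Tnfrsf13c was at -0.02 and the list median at -0.01. Of the 12 B cell genes, Pax5, Fcer2a and Cr2 had passed the filter through the Ikzf2-/- arrays alone. In Ikzf2-/- minus WT, Cd27, a costimulatory receptor of T cells, was at -0.24 ± 0.09 (adjusted p = 0.220) and Ripk3, the kinase of necroptosis, at 0.43 ± 0.18 (adjusted p = 0.251). Diablo, an antagonist of apoptosis inhibitors, was at 0.25 ± 0.14 in dKO minus WT (adjusted p = 1). Of 8 further TNF superfamily ligands 6 were on the array with a usable probe set and 1, Tnfsf9, was tested. Tnfsf9, the 4-1BB ligand, read 5.13, 5.95 and 5.68 in dKO cells, 4.88, 5.13 and 4.92 in Ikzf4-/- cells, and 5.00, 4.87 and 5.11 in WT 1 to 3. Every dKO array lay above every WT array, as for 5.34% of all genes tested, by 0.59 ± 0.18 on average (adjusted p = 0.724). The margin was narrow, 5.13 on dKO 1 against at most 5.11 on WT 1 to 3, and an Ikzf4-/- array had the same value as dKO 1. Tnfsf9 was dim, with means of 4.99 in WT 1 to 3 and 4.98 in Ikzf4-/- cells, close to the filter of 4.96.

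**Figure D4:**
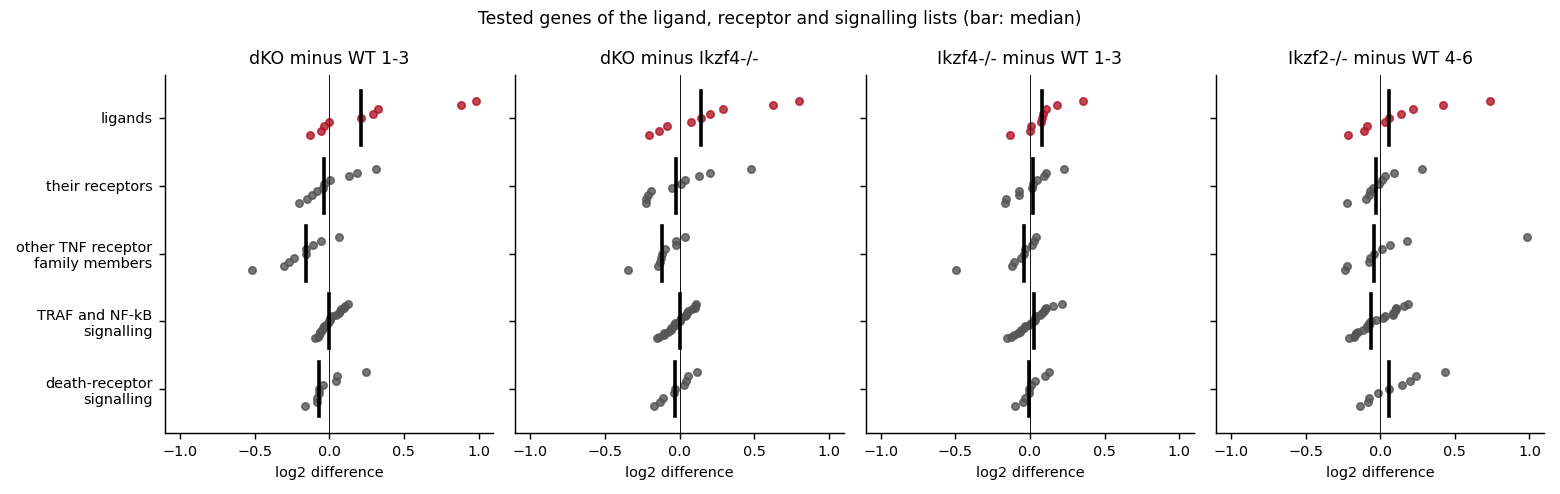
Log2 difference of every tested gene of 5 lists in each comparison (9 ligands, 10 of their receptors, 9 further TNF receptor family members, 21 TRAF and NF-kB genes and 9 death-receptor signalling genes), with a black bar at each list's median. The TRAF and NF-kB genes lie between -0.10 and 0.13 in dKO minus WT, where the ligands reach 0.98.

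How far the Tnfsf8 call rests on single choices is shown by its value in every setting. The difference itself moved little, and its lowest value, 0.92, came without dKO 1. The call held with a stricter filter, with repeated quantile normalization, with run 1 alone, with all 6 WT arrays pooled, with array weights, and without WT 4, Ikzf2-/- 2 or Ikzf2-/- 3.

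**Figure D5:**
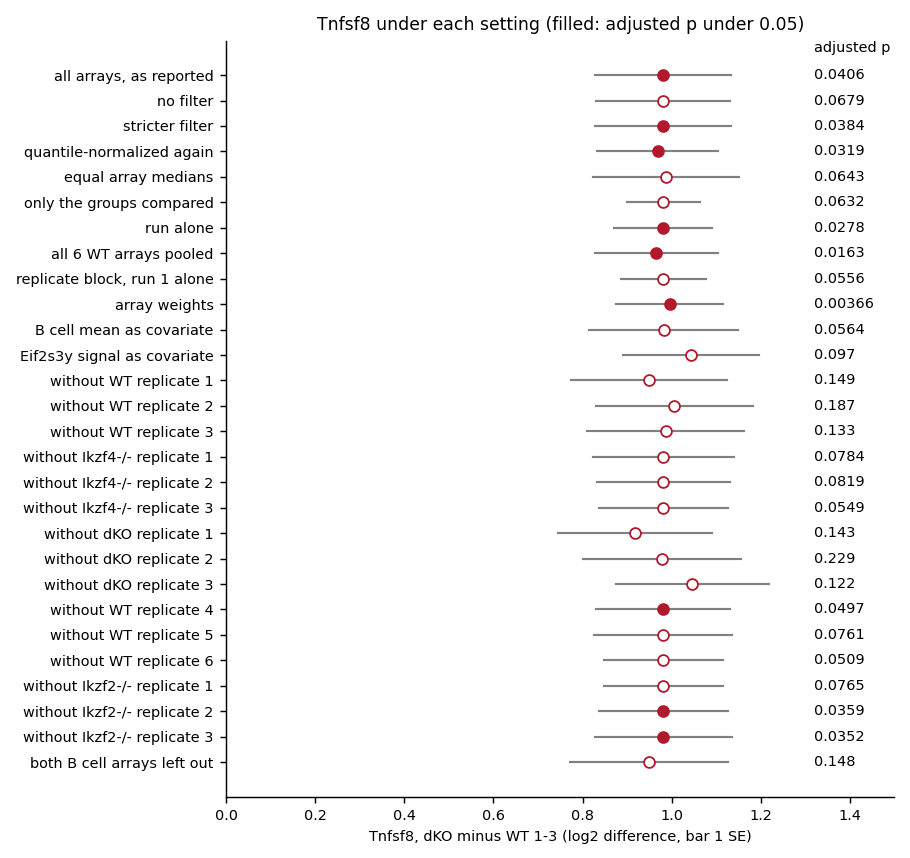
Log2 difference of Tnfsf8 in dKO minus WT 1 to 3 in the reported setting and under 27 alternatives, with bars of 1 SE and the adjusted p at the right; filled points have an adjusted p under 0.05. All differences lie between 0.92 and 1.05, and the adjusted p between 0.00366 and 0.229.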

How the data were processed

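The authors deposited log2 signals from RMA in Affymetrix Expression Console 1.3.1, per the submitters' processing notes, from 15 ng RNA per array amplified with a NuGEN kit per the labels' protocols. RMA compresses differences of dim genes, and 3 arrays a group limit the precision. The split into 2 runs was taken as given, since the numbering of the WT arrays alone does not place the knockout groups. No label states a run. Exactly equal values are frequent within run 1 (2286 probe sets per pair of arrays on average). They are far fewer within run 2 (34.4) and nearly absent across runs (0.0741). Probe sets with 1 symbol in the platform annotation were used, the brightest for each gene. Of 35556 probe sets 21789 had 1 symbol, updated through RefSeq GRCm38.p6 where matched (21698), 1621 had several and 12146 were not listed. No source used here names the build behind the array.

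A gene was tested if a group mean of a run exceeded 4.96, the median of probe set means. All 15 arrays entered limma 3.58.1 (R 4.3.3; lmFit, eBayes, 5 group means, 10 residual degrees of freedom, Benjamini-Hochberg at 0.05), tested on simulated data. Named genes are the 10 ligands, their receptors, up to 3 genes per list with the smallest p, and the genes most like or unlike Tnfsf8. The ligands and lists were chosen with earlier results of these data known. Replicate numbers were checked by the correlation of deviations from group means (numbers 1, 2 and 3). The values were 0.428, 0.196 and 0.267 for dKO and Ikzf4-/-, and 0.138, 0.217 and 0.303 for Ikzf4-/- and WT. For dKO and WT they were 0.0708, 0.0450 and 0.173. Arrays of unlike number were not compared, so these values cannot show whether the numbers pair.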

Additional observations from a re-analysis of the deposited data

How the results depend on the processing

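Alternatives covered the filter, normalization, scaling, the arrays in the fit, pooled WT arrays, a replicate block, array weights, a B cell covariate, an Eif2s3y covariate chosen after seeing the data, and leaving out arrays. The other probe set of a ligand could not be tried, as each has 1. In dKO minus WT, the number of ligands that passed was 0 with no filter (Tnfsf8 adjusted p = 0.0679), equal array medians (0.0643), only the groups compared (0.0632), the replicate block in run 1 alone (0.0556), the B cell covariate (0.0564), the Eif2s3y covariate (0.0970) and both arrays of high B cell signal left out (0.148). Leaving out 1 array at a time gave 0 to 1. With the replicate block, fitted on run 1 alone, no other ligand call changed. The genes passing were then 1 in dKO minus WT, 2 in dKO minus Ikzf4-/- and 0 in Ikzf4-/- minus WT. The reported fit of all 15 arrays gave 7, 3 and 0, but it differs both in the block and in the arrays used. With array weights 1 ligand, Tnfsf10, passed in Ikzf2-/- minus WT and 1, again Tnfsf10, in dKO minus Ikzf4-/-. Leaving out 1 array gave 0 to 1 in Ikzf2-/- minus WT. With all 6 WT arrays pooled, which sets runs against each other, Tnfsf14 turned to 0.0652 in dKO minus WT and Tnf to -0.00594 in Ikzf2-/- minus WT. Leaving out 1 array moved Tnf in Ikzf2-/- minus WT between -0.00853 (without WT 6) and 0.396. The cause of these changes was not tested. Over all 9 ligands, 5 comparisons and alternatives, 19 values lost a call, 3 gained one, and 3 reversed where the difference exceeded its SE. The other 1144 kept their side of the threshold, of which 1072 kept their sign and 72, all differences within their SE and not called, changed it.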
